A study of Mus musculus with 52 samples.

Results

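The mitochondrial carriers of the Slc25 family were followed in gastrocnemius muscle of aged mice that lost and regained the load on their hind legs. All protein-coding genes whose symbol begins with Slc25a were taken as members, by matching the table's Ensembl identifiers to GENCODE. This gave 47 of the 55487 genes in the table, and 39 of the 47 were among the 16668 genes with enough counts to be tested. Related carriers that bear other symbols (Ucp1, Ucp2, Ucp3, Mtch1 and Mtch2) were kept apart as a list of their own.

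The series holds 52 libraries of total RNA from male C57BL/6 mice aged 22 to 24 months, in 13 groups of 4. The ambulatory controls (AMB_W) drank plain water and were not unloaded. The other 12 groups all underwent hindlimb unloading, a model of disuse that takes the weight off the hind limbs and makes their muscles waste. They were sampled at the end of unloading (HU) or after a further 7 d (RL7) or 14 d (RL14) of reloading, and at each time they received plain water (W), metformin (M), leucine (L) or both together (ML) in the drinking water. No ambulatory group on metformin or leucine was among the samples, so a drink cannot be compared with water in muscle that was never unloaded. The sources used here give neither the length of unloading nor the doses, nor whether a library stands for 1 animal. P-values therefore measure the spread between these libraries, which may be partly technical. Libraries are named by group and by the replicate number in the title (HU_W 2).

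Carriers of this family span the inner mitochondrial membrane as bundles of helices built from repeated sequence modules, and each exchanges a small set of solutes between matrix and cytosol. In muscle they export ATP in return for ADP, bring in phosphate, move reducing equivalents through the malate-aspartate shuttle, admit fatty acids as carnitine esters and supply cofactors and iron. Unloading is known to lower the demand for oxidative energy in muscle, and reloading restores it.

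Totals ran from 15605044 to 32492548 counts per library. The 7 markers of skeletal muscle fibres summed to between 72870 and 126676 CPM (library-scaled counts, normalized with edgeR's TMM factors) in every library, as the labelled tissue calls for. The 6 slow fibre markers ranged more widely, from 3.62 to 1506 CPM. In 12 libraries Alb, which liver makes, was above 16 CPM. They include 2 of the 4 libraries in each of HU_W, HU_ML, RL7_M, RL7_L and RL14_L. Fits without the 12 thus compare smaller groups, and a call lost there may be lost for that reason alone, which was not tested. The genes of the mitochondrial chromosome took between 5.53% and 29.2% of the counts of a library. Their share lay between 5.53% and 10.4% in the reloaded groups RL7_M, RL7_L and RL7_ML, below the 11.2% to 24.1% of HU_M, HU_L and HU_ML, while RL7_W (13.2% to 15.4%) overlapped HU_W (12.6% to 17.96%). RL14_ML 1 and 6 stood apart in earlier results of these data, and RL14_ML 1 held the highest level of Slc25a39 (29.6 CPM) and Slc25a11 (107.2 CPM) of all libraries. Counts that turn on these libraries are given with and without them. Shares of all genes called are given only for the main edgeR fit of all 52 libraries.

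Compared per kilobase of exon (RPKM), the family was dominated by a single member. Slc25a4, the adenine nucleotide translocase of muscle and heart, averaged 405 RPKM over the 52 libraries and made up 66.0% of the family's summed RPKM. Next came the phosphate carrier Slc25a3 (50.7 RPKM), the aspartate/glutamate carrier Slc25a12 (32.2 RPKM), the oxoglutarate/malate carrier Slc25a11 (25.8 RPKM) and Slc25a46, an outer membrane protein that shapes the organelle (8.99 RPKM). These are levels, which the plot of RPKM by gene shows for 38 tested members. The length used joins all annotated exons of a gene, whether or not muscle uses them (2353 bases for Slc25a4 and 5550 for Slc25a3). Shares and gaps between genes depend on it: in CPM Slc25a4 averaged 952 and Slc25a3 281. The summed level of the family ranged from 450.6 to 829.4 RPKM per library, and the share of Slc25a4 from 50.8% to 71.2%. The lowest share belonged to RL7_M 4, where Slc25a4 stood at 538.6 CPM against 1006 to 1087 CPM in the other libraries of that group.

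**Figure D1:**
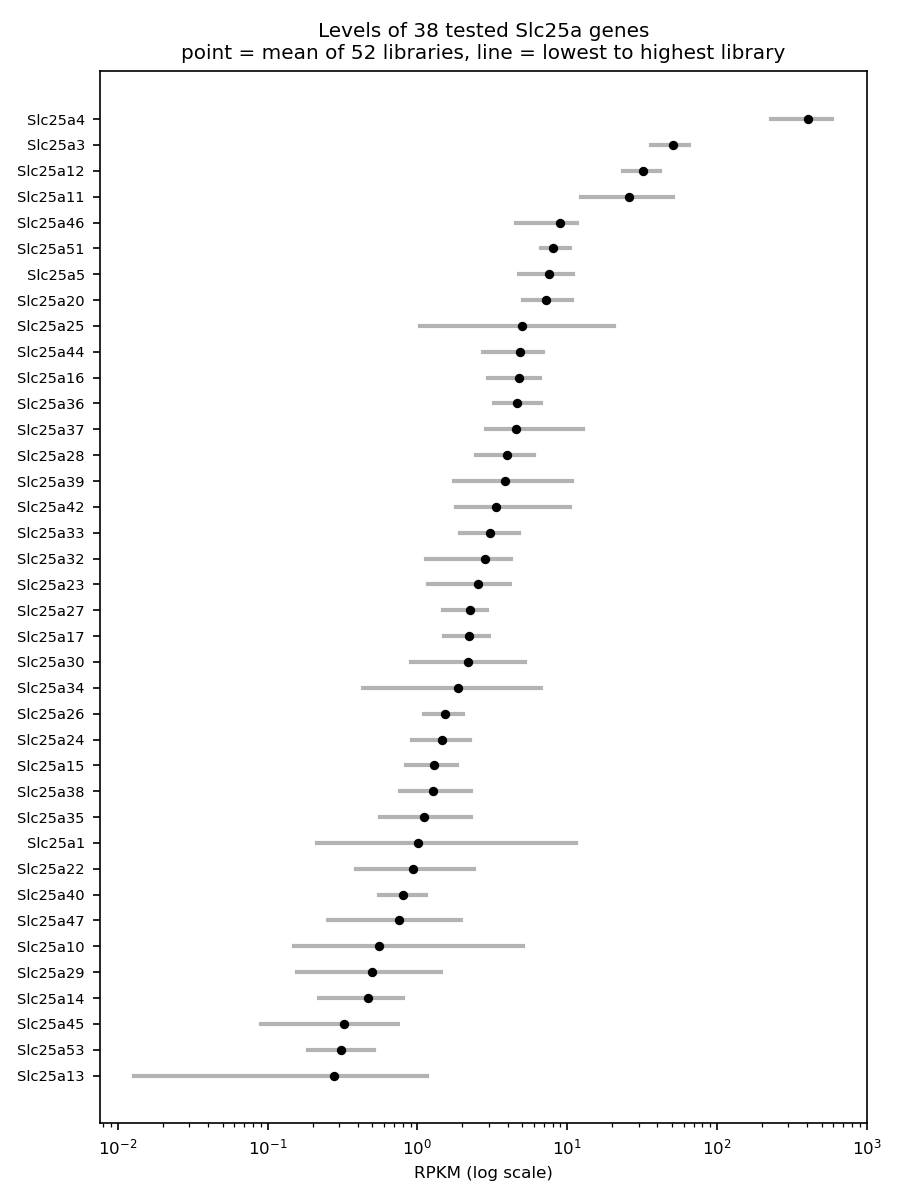
Level of 38 tested Slc25a genes in RPKM on a log axis. Points are means over 52 libraries and lines run from the lowest to the highest library. Slc25a4 averaged 405 RPKM, and the line of Slc25a25 (mean 4.97 RPKM) is among the longest.

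The 8 members that were not tested never exceeded 13 counts in a library. Slc25a2 and Slc25a18 peaked at 10 and 13 counts, Slc25a43 at 8, Slc25a21 at 6, Slc25a31 and Slc25a48 at 3, Slc25a41 at 2 and Slc25a54 at 1. Slc25a31 is the translocase of the male germ line, and Slc25a18 a glutamate carrier of glia. Nothing is said of change in these 8 genes. Several members lie next to each other in the genome: Slc25a29 (chr12:108825873-108835883) beside Slc25a47 (chr12:108836046-108856815), Slc25a23 beside Slc25a41, Slc25a5 beside Slc25a43, and Slc25a24 beside Slc25a54 (GRCm38).

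Which carriers respond to unloading was asked by setting the unloaded groups against AMB_W. In water-drinking mice 2 of 39 members changed and both rose, namely Slc25a25 and Slc25a28. Among all genes tested 2.78% changed in this comparison. The median log2 fold change of the members was -0.08, against -0.01 for all genes.

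Slc25a25 carries ATP-Mg against phosphate and is opened by calcium. It lies on the minus strand at chr2:32414487-32451445 (GRCm38), and the deposited count is for the whole gene. In AMB_W its levels were 21.5, 23.5, 22.6 and 18.97 CPM. In HU_W they were 156, 161, 91.5 and 80.1 CPM, so that the groups did not overlap. The means and SDs over 4 libraries were 21.7 ± 1.97 and 122 ± 42.4 CPM, a rise of 5.64-fold (log2 fold change 2.50 ± 0.34 SE, edgeR adjusted p = 4.76e-06). The call held without each library in turn, and without the 12 libraries rich in Alb (which include HU_W 1 and 2, the highest) it was still made (log2 fold change 1.99, adjusted p = 0.00316). Naif1, which overlaps Slc25a25 on the other strand, was measured at 3.04 against 3.12 CPM (log2 fold change -0.04).

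Slc25a25 was also above AMB_W in unloaded mice on each other drink, in comparisons that share the AMB_W libraries. With metformin the values were 91.9, 63.8, 84.99 and 58.97 CPM (log2 fold change 1.79 ± 0.33 SE, edgeR adjusted p = 0.000539). With leucine they were 85.8, 127, 139.7 and 84.2 CPM (log2 fold change 2.33 ± 0.33 SE, edgeR adjusted p = 1.1e-05). With both they were 61.8, 67.4, 52.02 and 33.5 CPM (log2 fold change 1.31 ± 0.33 SE, edgeR adjusted p = 0.0221). All 16 unloaded libraries exceeded the highest AMB_W library, and the highest of the 32 reloaded libraries lay below the lowest unloaded one. The last of these calls was lost without any 1 of 6 libraries (AMB_W 2, 3, 4 or 5, HU_ML 1 or 4), with an adjusted p of at most 0.121.

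**Figure D2:**
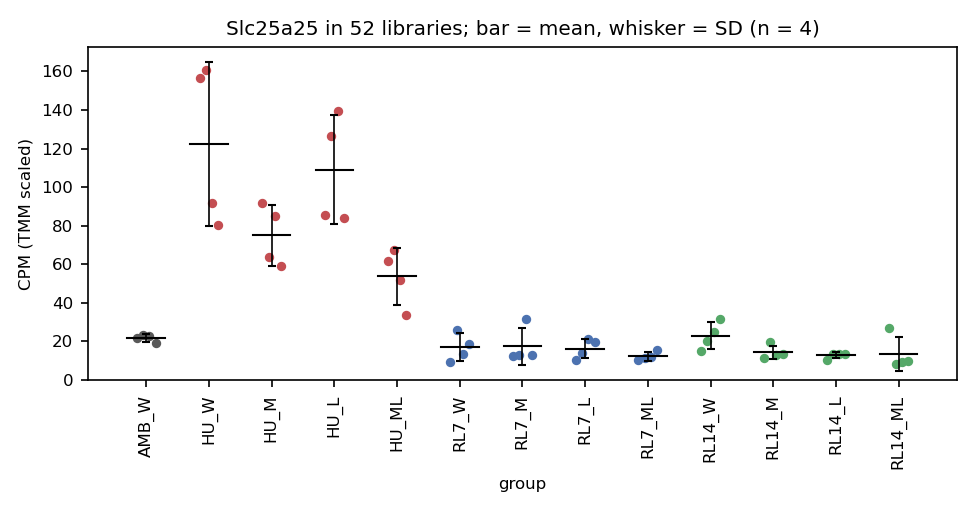
Slc25a25 in CPM by group. Each point is 1 library, the bar is the mean and the whisker the SD (n = 4). The unloaded groups average from 53.7 CPM (HU_ML) to 122.3 CPM (HU_W), and no other group averages above 23.01 CPM.

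Because Slc25a25 moved further than any other member in unloading, its promoters were read from RefSeq (GRCm38.p6). The table holds 46 promoters of 36 of the 47 members, and 3 of them belong to Slc25a25. Each was searched on both strands, from 250 bases before to 50 after the start, for TGACGTCA (the site of CREB, the factor of cAMP signalling), TGACGCAA (ATF4), GTAAACA (FoxO) and AAGGTCA (ERR, oestrogen-related receptors of oxidative metabolism). TGACGTCA was found in 2 of the members' 46 promoters, those of Slc25a25 (1 of its 3) and the pyrimidine nucleotide carrier Slc25a36, and in 1.79% of all 32851 promoters. AAGGTCA was found in 1 of the 46, that of Slc25a34 (as TGACCTT, beginning 119 bases upstream), and in 4.72% of all promoters. The other motifs matched no member and 0.49% (TGACGCAA) and 3.65% (GTAAACA) of all promoters. The Slc25a25 promoter with the match, at chr2:32424067-32424316 on the minus strand, and that of Slc25a36, at chr9:97111042-97111291 on the minus strand, are printed as the 250 bases before the start site, with the motif in capitals, because they are the only members to hold it among the 36.
Slc25a25 promoter 1: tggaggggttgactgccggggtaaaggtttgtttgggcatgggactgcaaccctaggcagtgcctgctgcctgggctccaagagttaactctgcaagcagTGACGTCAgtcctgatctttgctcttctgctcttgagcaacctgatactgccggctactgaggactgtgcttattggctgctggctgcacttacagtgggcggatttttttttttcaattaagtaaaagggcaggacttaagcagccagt
Slc25a36: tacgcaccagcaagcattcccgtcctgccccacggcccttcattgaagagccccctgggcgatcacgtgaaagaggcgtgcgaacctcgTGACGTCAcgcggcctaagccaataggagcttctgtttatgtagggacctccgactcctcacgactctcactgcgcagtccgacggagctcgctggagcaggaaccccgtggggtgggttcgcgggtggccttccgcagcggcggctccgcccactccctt
The match begins 150 bases upstream of the start in Slc25a25 and 161 bases upstream in Slc25a36. A match is a run of letters and not a measured site, and counts per gene do not tell which of the 3 starts of Slc25a25 is used. Slc25a36, the other gene with the motif, averaged 45.8 ± 7.77 CPM in HU_W and 46.8 ± 1.54 CPM in AMB_W (log2 fold change -0.03 ± 0.12 SE, edgeR adjusted p = 0.942). From HU to RL7 its log2 fold change was -0.23 under water, -0.41 under metformin, -0.11 under leucine and -0.26 under both, called under metformin only. The part of the motif in either gene was not tested. The median GC content of the members' promoters was 59.3%, against 52.7% for all promoters.

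The other ATP-Mg carrier to respond went the opposite way. Slc25a23, a calcium-dependent relative of Slc25a25, stood at 14.04, 13.5, 13.8 and 14.4 CPM in AMB_W. In HU_W it was 9.54, 10.04, 12.2 and 9.19 CPM, below every AMB_W library (log2 fold change -0.44 ± 0.16 SE, edgeR adjusted p = 0.136), which misses the threshold. It fell with metformin to 10.5, 10.5, 6.20 and 10.4 CPM (log2 fold change -0.57 ± 0.16 SE, edgeR adjusted p = 0.028) and with leucine to 10.4, 9.49, 7.45 and 7.97 CPM (log2 fold change -0.66 ± 0.16 SE, edgeR adjusted p = 0.00901). With both it was 9.18, 8.64, 10.5 and 11.7 CPM (adjusted p = 0.101). All 16 unloaded libraries lay below all 4 AMB_W libraries. The metformin call was lost without any 1 of 5 libraries (adjusted p up to 0.219) and the leucine call without HU_L 3 (0.0552). The third member of this trio, Slc25a24, was called in none of the 30 pairwise comparisons.

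Of the iron carriers, Slc25a28 (mitoferrin-2, the form made outside red cells) rose in unloading under every drink. Its levels were 11.5, 12.1, 11.04 and 9.28 CPM in AMB_W and 17.6, 16.4, 15.8 and 15.8 CPM in HU_W (log2 fold change 0.58 ± 0.15 SE, edgeR adjusted p = 0.0204). They were 14.5 to 19.5 CPM in HU_M (adjusted p = 0.0237), 14.2 to 17.1 CPM in HU_L (adjusted p = 0.0486) and 14.5 to 19.7 CPM in HU_ML (log2 fold change 0.71, adjusted p = 0.00522). Every unloaded library exceeded every AMB_W library. The rise of about 1.495-fold in HU_W is small, and its call was lost without AMB_W 5 or HU_W 1 and without the 12 libraries rich in Alb (adjusted p = 0.233). The HU_L call was lost without each of its 8 libraries in turn (adjusted p up to 0.192) and the HU_M call without AMB_W 4, AMB_W 5 or HU_M 4. Of the 4, only the HU_ML call was kept without each library.

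Slc25a37 (mitoferrin-1, the form of developing red cells) stood at 27.7, 24.04, 23.2 and 21.8 CPM in AMB_W and 38.4, 36.9, 32.8 and 29.4 CPM in HU_W (log2 fold change 0.51 ± 0.19 SE, edgeR adjusted p = 0.173). It was called higher in HU_M, where the libraries read 27.2, 30.5, 76.4 and 28.95 CPM (log2 fold change 0.75 ± 0.19 SE, edgeR adjusted p = 0.0153), a call lost without AMB_W 5, in a fit of the 8 libraries alone and without HU_M 3 (log2 fold change 0.25, adjusted p = 0.517). The 6 red blood cell markers, globins among them, summed to 2.85 to 6.24 CPM in AMB_W, 27.6 to 59.9 CPM in HU_W and 16.99 to 179.9 CPM in HU_M, where HU_M 3 was the highest of all 52 libraries. They were lower in HU_L (12.3 to 17.7 CPM) and HU_ML (6.33 to 15.1 CPM), the groups in which Slc25a37 ranged over 20.1 to 24.9 and 20.1 to 23.5 CPM. The part of red cell RNA in the level of Slc25a37 was not tested. In whole muscle, more cells of a type and more RNA per cell cannot be told apart.

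Under leucine 1 more carrier rose. Slc25a5, the adenine nucleotide translocase of proliferating tissues, had 9.62, 11.8, 12.9 and 10.4 CPM in AMB_W and 15.9, 17.5, 18.1 and 17.1 CPM in HU_L, without overlap (log2 fold change 0.62 ± 0.15 SE, edgeR adjusted p = 0.00937). In HU_W it was 16.7, 14.6, 15.62 and 11.6 CPM (adjusted p = 0.19). A pseudogene that shares its sequence, Slc25a5-ps, was never above 0.222 CPM. Under metformin Slc25a35, a carrier of unsettled substrate, fell from 4.84, 3.66, 4.93 and 5.19 CPM to 3.35, 2.55, 2.08 and 2.66 CPM (log2 fold change -0.80 ± 0.22 SE, edgeR adjusted p = 0.0286), without overlap. The Slc25a35 call was lost without any 1 of 6 libraries (adjusted p up to 0.142) and the Slc25a5 call without AMB_W 2 (0.0627). Rangrf, which overlaps Slc25a35 on the other strand, was also lower, at 2.60 CPM in HU_M against 4.13 CPM in AMB_W. The strand setting of the counting is not given, so reads of the pair cannot be told apart in any comparison of Slc25a35. The main translocase Slc25a4 stood at 931, 931, 962 and 915 CPM in AMB_W and 932, 858, 900.0 and 748 CPM in HU_W (log2 fold change -0.12 ± 0.14 SE, edgeR adjusted p = 0.774), and it was called in none of the 30 pairwise comparisons.

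By count, 5 of 39 members changed in HU_M against AMB_W (3 higher and 2 lower, with 3.62% of all genes called), 4 in HU_L (3 higher and 1 lower, 3.74%, with 2.54% higher) and 2 in HU_ML (both higher, 2.07%). With the 4 unloaded groups averaged, a comparison added after the data had been seen, 5 members changed: Slc25a25, Slc25a28 and Slc25a5 rose and Slc25a23 and Slc25a35 fell, against 6.08% of all genes. Of these, Slc25a25, Slc25a28 and Slc25a23 kept the call without each library in turn. A fit of the 8 libraries of HU_W and AMB_W alone called 5 members, adding Slc25a23, Slc25a35 and Slc25a37 to Slc25a25 and Slc25a28.

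**Figure D3:**
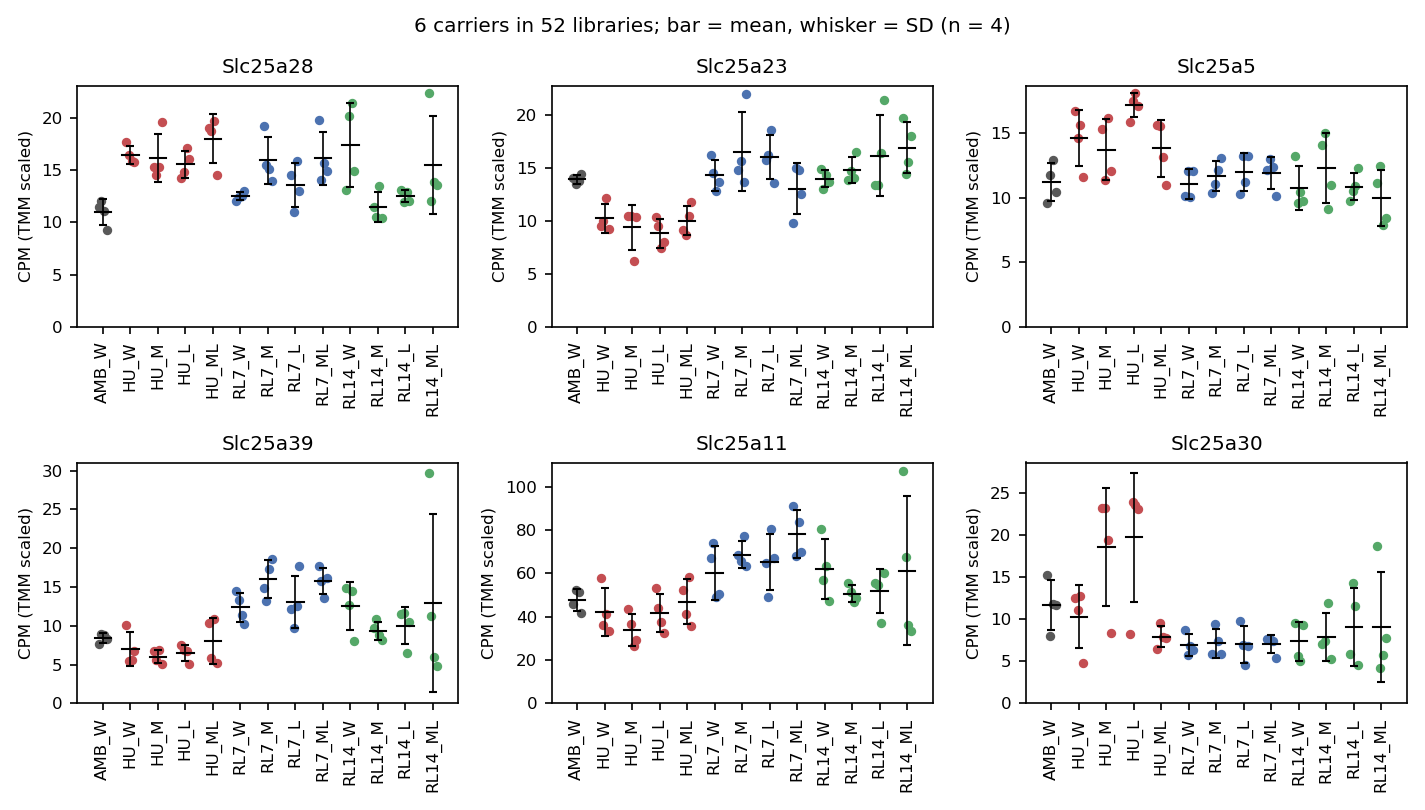
Slc25a28, Slc25a23, Slc25a5, Slc25a39, Slc25a11 and Slc25a30 in CPM by group. Each point is 1 library, the bar is the mean and the whisker the SD (n = 4). Slc25a23 lies below AMB_W in all 4 unloaded groups and Slc25a28 above it; the highest point of Slc25a39 and of Slc25a11 is RL14_ML 1.

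What the return of load does was asked by comparing RL7 with HU under each drink, in 4 comparisons that share no library. Under water 1 of 39 members changed, and it fell (4.88% of all genes changed, 1.97% up and 2.90% down). Under metformin 12 rose and 6 fell (15.4% and 14.2% of all genes), under leucine 6 rose and 4 fell (14.7% and 13.9%), and under both 3 rose and 1 fell (2.69% and 3.22%). Under leucine the share of members that changed was close to the background, and under metformin more of them rose than of all genes, a difference that was not tested. The metformin, leucine and combination groups are also those whose share of mitochondrial transcripts did not overlap between HU and RL7, and the part of that difference in these counts was not tested.

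Markers of other cells moved in the same comparisons. The 5 endothelial markers summed to 129.3 to 160.1 CPM in HU_W and 177.995 to 243.3 CPM in RL7_W, without overlap, and 1 of them rose under water, 3 under metformin, 1 under leucine and 1 under both. Of the 6 macrophage markers 5 rose under leucine, from a sum of 17.6 to 34.6 CPM in HU_L to 24.2 to 124.5 CPM in RL7_L, with overlap. The highest sum was that of RL7_L 5, while RL7_L 1, 2 and 3 summed to 38.3, 44.4 and 24.2 CPM. Under the other drinks 0 were called by edgeR (0, 1 and 0 at an unadjusted p under 0.05 under water, metformin and both). Of all genes 1.97% rose under water, 15.4% under metformin, 14.7% under leucine and 2.69% under both. The slow fibre markers had 0 calls and 0 unadjusted p under 0.05 in these 4 comparisons. The part of these cells in the carriers' changes was not tested.

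The count under water differed between settings. It was 1 with all 52 libraries, 5 without RL14_ML 1 and 6 (Slc25a23, Slc25a25, Slc25a28, Slc25a39 and Slc25a42), and 9 either in a fit of these 8 libraries alone or with limma voom. The share of all genes called in these other settings was not counted, so the larger counts have no background beside them. In the main test 11 members had an unadjusted p under 0.05. The 3 tests of whether the change from HU to RL7 differed between a drink and water called 0 members by edgeR, by DESeq2 and by limma voom, with 6 (metformin), 3 (leucine) and 1 (both) at an unadjusted p under 0.05. A larger count under metformin is thus not a tested difference from water. In those 3 tests 0.0300%, 0.0660% and 0.0120% of all genes were called. A fit of only the groups compared called 1 member, Slc25a37, for leucine and for both, and 0 for metformin. From HU to RL7 the log2 fold change of Slc25a37 in the main fit was -0.49 under water, 0.31 under leucine and 0.34 under both.

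Slc25a25 fell under all 4 drinks. In RL7_W it was 9.24, 26.2, 13.7 and 18.9 CPM, a 7.18-fold drop from HU_W (log2 fold change -2.84 ± 0.34 SE, edgeR adjusted p = 4.84e-07). The values were 12.3 to 31.8 CPM in RL7_M (log2 fold change -2.10 ± 0.33 SE, edgeR adjusted p = 2.25e-05), 10.4 to 21.01 CPM in RL7_L (log2 fold change -2.74 ± 0.34 SE, edgeR adjusted p = 2.22e-07) and 10.5 to 15.7 CPM in RL7_ML (log2 fold change -2.12 ± 0.34 SE, edgeR adjusted p = 8.35e-05). None of the 4 pairs of groups overlapped, and none of the calls was lost under any alternative run. Against AMB_W the reloaded water mice did not pass the test (17.01 against 21.7 CPM, adjusted p = 0.768).

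**Figure D4:**
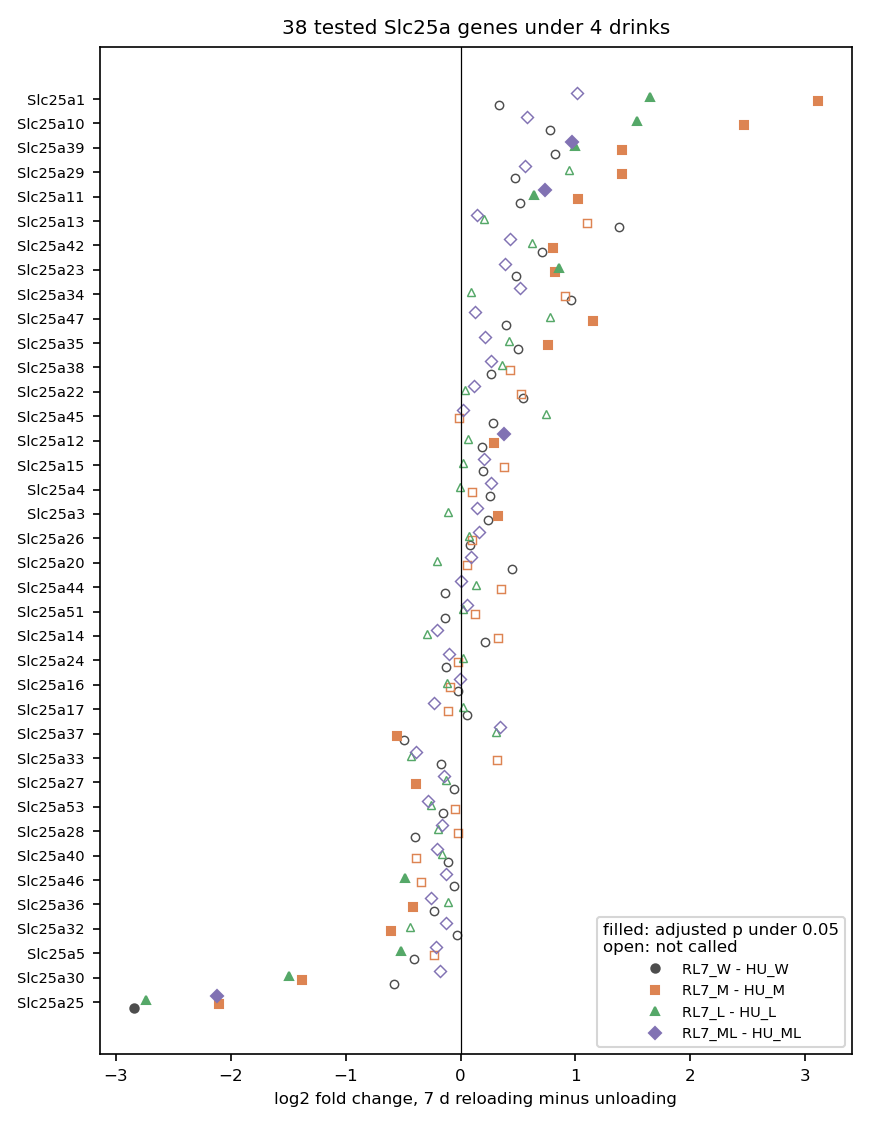
Log2 fold change from unloading to 7 d of reloading for 38 Slc25a genes under 4 drinks. Filled symbols passed the edgeR test and open ones did not. Slc25a25 is at the bottom with 4 filled symbols between -2.84 and -2.10; Slc25a1 and Slc25a10 lie far to the right under metformin, where RL7_M 4 is far above the other libraries.

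Among the carriers of nucleotides and coenzyme A, Slc25a23 rose from the same HU libraries in which it had been low. It went from 10.5, 10.5, 6.20 and 10.4 to 14.8, 15.7, 13.7 and 21.9 CPM under metformin (log2 fold change 0.82 ± 0.16 SE, edgeR adjusted p = 0.000196) and from 10.4, 9.49, 7.45 and 7.97 to 15.8, 16.2, 18.6 and 13.6 CPM under leucine (log2 fold change 0.86 ± 0.16 SE, edgeR adjusted p = 0.00012), without overlap in either, and both calls held without each library. Under water it was 16.2, 14.5, 12.9 and 13.6 CPM (adjusted p = 0.0614). Slc25a42, which brings coenzyme A into the matrix, rose under metformin from 15.4, 14.1, 11.2 and 10.9 to 21.9, 22.2, 26.1 and 19.9 CPM (log2 fold change 0.80 ± 0.26 SE, edgeR adjusted p = 0.0186), a call lost without HU_M 3, HU_M 4 or RL7_M 3. Under water Slc25a42 averaged 13.9 ± 3.26 CPM in HU_W and 22.7 ± 4.54 CPM in RL7_W (adjusted p = 0.105). Slc25a36 fell under metformin, from 51.3, 49.5, 50.1 and 63.8 to 44.8, 38.998, 40.4 and 37.4 CPM (log2 fold change -0.41 ± 0.12 SE, edgeR adjusted p = 0.00789).

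Of the carboxylate carriers, Slc25a11 is the oxoglutarate/malate exchanger of the malate-aspartate shuttle, on the minus strand at chr11:70644196-70647479. Under metformin it rose 2.03-fold, from 43.4, 36.5, 26.4 and 29.4 to 68.5, 65.6, 77.4 and 63.3 CPM, with no overlap (log2 fold change 1.02 ± 0.23 SE, edgeR adjusted p = 0.00139). Under leucine it went from 53.1, 43.9, 37.7 and 32.3 to 64.7, 48.9, 80.4 and 67.03 CPM, with overlap (log2 fold change 0.64 ± 0.23 SE, edgeR adjusted p = 0.0347). With both drinks it went from 52.3, 41.2, 58.4 and 35.8 to 91.1, 68.2, 83.8 and 70.1 CPM (log2 fold change 0.74 ± 0.23 SE, edgeR adjusted p = 0.0477). The last 2 calls were lost without most single libraries (6 and 7 of 8), with adjusted p up to 0.131 and 0.175. Its partner in the shuttle, the aspartate/glutamate carrier Slc25a12, rose by less: from 229, 178, 257 and 202 to 305, 259, 291 and 272 CPM with both drinks (log2 fold change 0.38 ± 0.11 SE, edgeR adjusted p = 0.0305) and from 222, 227, 173 and 186 to 254, 264, 253 and 216 CPM under metformin (log2 fold change 0.29 ± 0.11 SE, edgeR adjusted p = 0.042). These calls, too, were lost without 6 and 5 of 8 single libraries. Rnf167, on the other strand of Slc25a11, was not called under any single drink (log2 fold changes 0.32, 0.36, 0.38 and 0.33) and rose in the average over drinks (log2 fold change 0.35 ± 0.09 SE, edgeR adjusted p = 0.00146).

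The citrate carrier Slc25a1 and the dicarboxylate carrier Slc25a10, both of which serve fat synthesis in adipose tissue and liver, had the largest upward changes from HU to RL7 under metformin. Slc25a1 read 0.462, 0.830, 1.32 and 1.07 CPM in HU_M and 2.30, 2.73, 2.17 and 24.97 CPM in RL7_M (log2 fold change 3.11 ± 0.59 SE, edgeR adjusted p = 0.000175). Slc25a10 read 1.04, 1.53, 1.07 and 0.577 CPM and 1.92, 1.47, 1.95 and 17.6 CPM (log2 fold change 2.47 ± 0.55 SE, edgeR adjusted p = 0.00107). Both genes were low in HU_M, and over all libraries the lowest count of each was 8. In both genes a single library, RL7_M 4, lay far above the rest. Without it Slc25a1 kept its call (log2 fold change 1.32, adjusted p = 0.0343) and Slc25a10 lost it (log2 fold change 0.73, adjusted p = 0.235).

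The 6 adipocyte markers summed to 937.2 CPM in RL7_M 4 and to between 59.3 and 247.9 CPM in the other 51 libraries. In RL7_M 1, 2 and 3, where Slc25a1 was above every HU_M library, they summed to 79.7, 84.8 and 71.8 CPM, against 80.2 to 116.1 CPM in HU_M. Over all libraries Fabp4 averaged 82.6 CPM and was never below 32.3 CPM, while Adipoq, Plin1, Cidec and Lep averaged 5.32, 7.43, 4.44 and 1.08 CPM. Cfd, the remaining marker, averaged 25.1 CPM and ran from 1.11 to 412.3 CPM. Low sums thus rest largely on Fabp4, with a part from Cfd that varied widely, and cannot show how much fat a library held. RL14_ML 1, with 4.91 CPM of Slc25a1 and 5.75 CPM of Slc25a10, had 91.3 CPM of markers. Under leucine Slc25a1 rose from 1.76, 0.935, 0.682 and 1.40 to 2.17, 4.48, 1.97 and 6.44 CPM (log2 fold change 1.65 ± 0.57 SE, edgeR adjusted p = 0.0283) and Slc25a10 from 1.91, 0.719, 0.796 and 1.11 to 2.07, 3.33, 3.04 and 4.96 CPM (log2 fold change 1.54 ± 0.55 SE, edgeR adjusted p = 0.0321). RL7_L 2 and 5, the libraries highest in Slc25a1 and Slc25a10 there, had marker sums of 247.9 and 228.6 CPM, while RL7_L 1 and 3 had 96.5 and 85.3 CPM. Without the 12 libraries rich in Alb, which include RL7_L 2 and 5, both calls under leucine were lost (adjusted p = 0.477 and 0.296), as they were without any 1 of 5 and of 4 single libraries. Ucp1, the carrier of brown fat, had 0 counts in all libraries. The part of fat tissue in these levels was not tested.

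**Figure D5:**
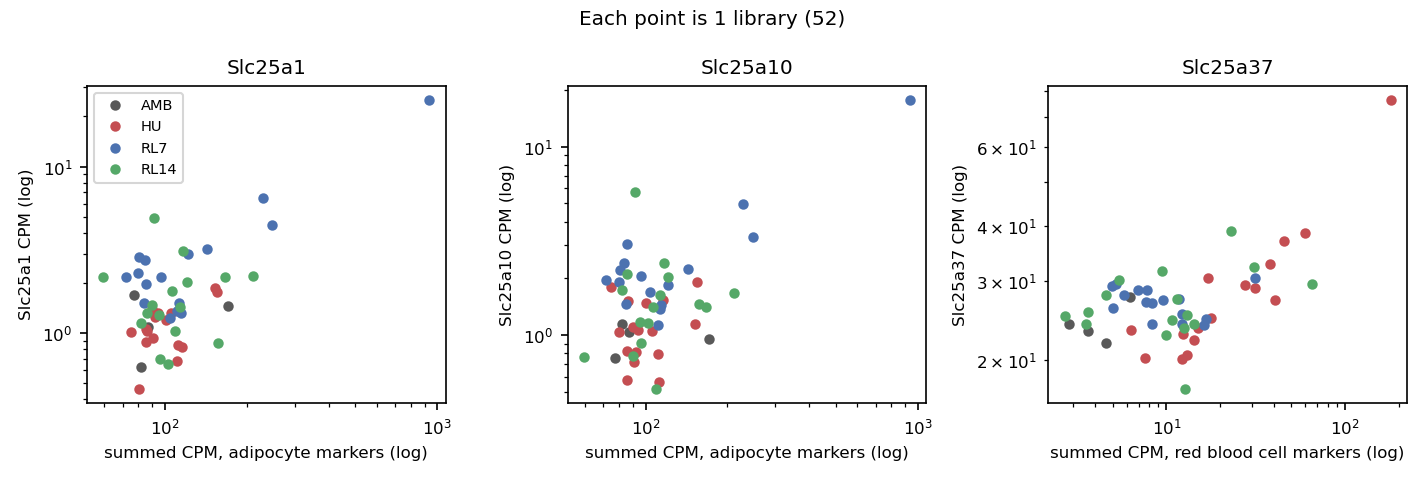
Slc25a1 and Slc25a10 against the summed CPM of 6 adipocyte markers, and Slc25a37 against that of 6 red blood cell markers, on log axes. Each point is 1 library, coloured by time. RL7_M 4 is the point at the upper right of the first panels (937.2 CPM of markers) and HU_M 3 that of the last (179.9 CPM).

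Slc25a39, which imports glutathione, showed a rise under 3 drinks. It went from 6.70, 5.56, 6.86 and 5.02 to 14.9, 13.2, 17.4 and 18.6 CPM under metformin, 2.66-fold and without overlap (log2 fold change 1.41 ± 0.31 SE, edgeR adjusted p = 0.00102). Under leucine it went from 7.48, 6.90, 6.71 and 5.02 to 12.2, 9.78, 12.6 and 17.7 CPM (log2 fold change 1.00 ± 0.31 SE, edgeR adjusted p = 0.0153) and with both from 10.3, 5.81, 10.9 and 5.23 to 17.7, 15.8, 13.6 and 16.1 CPM (log2 fold change 0.97 ± 0.31 SE, edgeR adjusted p = 0.0475). Under water it averaged 6.97 ± 2.19 CPM in HU_W and 12.4 ± 1.89 CPM in RL7_W, short of the threshold (adjusted p = 0.114). The metformin call held without each library, the leucine call was lost without HU_L 5 or RL7_L 5, and the call with both drinks without any 1 of 7. Slc25a40, its relative, was called in none of the 30 pairwise comparisons.

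The folate carrier Slc25a32 fell under metformin, from 17.6, 25.7, 18.4 and 19.4 to 17.5, 13.5, 15.4 and 6.91 CPM (log2 fold change -0.60 ± 0.18 SE, edgeR adjusted p = 0.0108), a call lost without HU_M 2 or RL7_M 4. Of the amino acid carriers, Slc25a29 (arginine and lysine) rose under metformin from 0.635, 1.21, 0.406 and 0.755 to 2.68, 1.77, 2.06 and 1.40 CPM (log2 fold change 1.40 ± 0.40 SE, edgeR adjusted p = 0.00719). These levels are low, and its lowest library held 8 counts. The metformin call of Slc25a29 was lost without the 12 libraries rich in Alb, RL7_M 1 and 2 among them (adjusted p = 0.0695). Its neighbour Slc25a47, known from liver, rose there too, from 1.96, 1.28, 0.965 and 0.755 to 2.40, 3.84, 2.33 and 2.35 CPM (log2 fold change 1.15 ± 0.35 SE, edgeR adjusted p = 0.0114). RL7_M 2, its highest library, held 124.3 CPM of Alb, and without RL7_M 2 or HU_M 4 the Slc25a47 call was lost (adjusted p up to 0.0652).

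Carriers related to the uncoupling proteins fell or were not called. Slc25a30, named for its expression in kidney, was high in most HU_M libraries (23.2, 23.2, 19.4 and 8.39 CPM) and HU_L libraries (8.22, 23.9, 23.6 and 23.02 CPM). It fell to 5.85, 9.41, 7.36 and 5.87 CPM in RL7_M (log2 fold change -1.38 ± 0.38 SE, edgeR adjusted p = 0.00557) and 9.82, 6.88, 4.55 and 6.77 CPM in RL7_L (log2 fold change -1.49 ± 0.38 SE, edgeR adjusted p = 0.00338), and the groups overlapped through HU_M 4 and HU_L 1. In HU_W and HU_ML it had been 4.84 to 12.8 and 6.44 to 9.56 CPM, and neither fell by the test. Slc25a27 fell under metformin only by 1.31-fold (log2 fold change -0.38 ± 0.14 SE, edgeR adjusted p = 0.0318), a call lost without HU_M 2, HU_M 4 or RL7_M 4, and Slc25a14 was not called. Without the 12 libraries rich in Alb the Slc25a30 call under leucine was lost (adjusted p = 0.125).

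The remaining calls of this period were mostly small. Slc25a5 fell under leucine from 17.2 to 11.995 ± 1.49 CPM (log2 fold change -0.51 ± 0.15 SE, edgeR adjusted p = 0.00894) and Slc25a46 from 53.6, 58.4, 54.1 and 62.8 to 42.1, 41.4, 43.7 and 36.8 CPM (log2 fold change -0.48 ± 0.14 SE, edgeR adjusted p = 0.00854), and without the 12 libraries rich in Alb the Slc25a46 call was lost (adjusted p = 0.198). Under metformin Slc25a3 rose from 271, 264, 215 and 202 to 278, 305, 323 and 287 CPM (adjusted p = 0.0415), a call lost without any 1 of 6 libraries. Slc25a37 fell (adjusted p = 0.0237, and 0.75 without HU_M 3). Slc25a35 rose from 3.35, 2.55, 2.08 and 2.66 to 3.88, 4.65, 3.84 and 5.60 CPM (log2 fold change 0.76 ± 0.22 SE, edgeR adjusted p = 0.00879), a call lost without RL7_M 4. Rangrf, which overlaps Slc25a35 on the other strand, rose with it (5.98 against 2.60 CPM, adjusted p = 0.000528), and since the strand setting of the counting is not given, reads of the pair cannot be told apart.

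Signs were shared more widely than calls. From HU to RL7, 17 members were higher and 11 lower under all 4 drinks, 71.8% of the 39, against 56.8% of all genes tested. Averaged over the drinks, a comparison added after the data had been seen, 23 members changed, with 14 higher and 9 lower. Since 52.7% of all genes also changed in it, the family's 23 of 39 is near the background. Slc25a23 (log2 fold change 0.64), Slc25a39 (1.05), Slc25a11 (0.73) and Slc25a42 (0.64) rose, and Slc25a25 (-2.45), Slc25a30 (-0.91) and Slc25a5 (-0.34) fell.

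Whether carriers had returned to the ambulatory level was asked at both reloading times. In RL7_W against AMB_W edgeR called 0 members, as did DESeq2 and limma voom, with 1 member at an unadjusted p under 0.05; 0% of all genes were called. In RL14_W against AMB_W 1 member changed (0.174% of all genes changed, 0.120% up and 0.0540% down). It was Slc25a28, with 13.04, 20.1, 21.4 and 14.9 CPM, higher than AMB_W (log2 fold change 0.66 ± 0.15 SE, edgeR adjusted p = 0.0442), and the call was lost without 7 of the 8 libraries in turn, with an adjusted p of up to 0.223. Under metformin, leucine or both, 0 members differed from AMB_W at 14 d by edgeR, DESeq2 or limma voom (0%, 0% and 0.120% of all genes), with 1, 2 and 8 at an unadjusted p under 0.05. A missed threshold does not show that the levels were equal.

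Against unloading, 3 members had changed in water mice at 14 d (9.72% of all genes changed, 5.50% up and 4.22% down). Slc25a25 was 15.2, 20.3, 24.9 and 31.6 CPM, 5.31-fold below HU_W (log2 fold change -2.41 ± 0.33 SE, edgeR adjusted p = 6.78e-06). Slc25a42 rose to 31.4, 26.2, 23.3 and 17.4 CPM (log2 fold change 0.83 ± 0.26 SE, edgeR adjusted p = 0.0392) and Slc25a5 fell to 13.2, 9.59, 10.4 and 9.77 CPM (log2 fold change -0.44 ± 0.15 SE, edgeR adjusted p = 0.0492), both with overlap, and each of these 2 calls was lost without 6 of 8 single libraries. Without RL14_ML 1 and 6 the count was 9. With the drinks averaged, as added after the data had been seen, 12 members rose and 5 fell (16.4% and 13.3% of all genes). Slc25a23 in all 16 libraries at 14 d lay above all 16 unloaded libraries (log2 fold change 0.68). Between RL7_W and RL14_W edgeR called 0 members (0.0360% of all genes), while DESeq2 gave 0, limma voom 4 and edgeR without RL14_ML 1 and 6 gave 3. In the test with all libraries 5 had an unadjusted p under 0.05.

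Each drink was compared with water at the same time, in 9 comparisons. Only 2 of them had a called member. In RL7_M against RL7_W Slc25a1 was higher (log2 fold change 2.56 ± 0.56 SE, edgeR adjusted p = 0.0388; 0.138% of all genes called), and without RL7_M 4, the library rich in adipocyte markers, its log2 fold change was 0.79 and the adjusted p 0.598. The call was also lost without any 1 of the 4 RL7_W libraries. Without RL14_ML 1 and 6 the count in this comparison was 4 (Slc25a1, Slc25a10, Slc25a44 and Slc25a51). In RL14_M against RL14_W 4 members fell and 0 rose (5.12% of all genes changed, 1.54% up and 3.58% down). They were Slc25a28, Slc25a16, the branched-chain amino acid carrier Slc25a44 and the NAD+ carrier Slc25a51.

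The 4 falls at 14 d under metformin were modest, and each call was lost without any 1 of 4 or 5 of the 8 libraries. Slc25a28 was 11.4, 10.5, 13.5 and 10.4 CPM in RL14_M and 13.04, 20.1, 21.4 and 14.9 CPM in RL14_W (log2 fold change -0.60 ± 0.15 SE, edgeR adjusted p = 0.0193). Slc25a51 was 36.6, 39.8, 38.9 and 43.4 against 51.7, 49.4, 53.6 and 48.01 CPM (log2 fold change -0.35 ± 0.09 SE, edgeR adjusted p = 0.0202). Slc25a44 was 14.4, 16.1, 16.3 and 13.1 against 20.1, 22.9, 23.8 and 20.1 CPM (log2 fold change -0.54 ± 0.14 SE, edgeR adjusted p = 0.0234), and Slc25a16 was 16.5 to 21.8 against 22.996 to 30.6 CPM (log2 fold change -0.46 ± 0.13 SE, edgeR adjusted p = 0.0263). Slc25a51, Slc25a44 and Slc25a16 did not overlap between the groups, and Slc25a28 did. Each call was lost without RL14_W 3, RL14_W 4 or RL14_M 6, among others. With 1 library left out the log2 fold changes ran from -0.69 to -0.47 (Slc25a28), -0.37 to -0.30 (Slc25a51), -0.56 to -0.45 (Slc25a44) and -0.50 to -0.36 (Slc25a16). The mitochondrial chromosome took 17.5% to 27.4% of counts in RL14_M and 8.31% to 11.7% in RL14_W. The red blood cell markers summed to 9.99 to 65.3 CPM against 2.69 to 4.60 CPM, without overlap, and the slow fibre markers to 624.9 to 1402 CPM against 3.62 to 638.4 CPM. The part of these differences in the falls was not tested.

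In the other 7 comparisons with water edgeR called 0 members. The unadjusted p was under 0.05 for 2 members in each of HU_M, HU_L and HU_ML, 4 in RL7_L, 3 in RL7_ML, 8 in RL14_L and 3 in RL14_ML. DESeq2 called 0 in all 7, and limma voom called 4 in RL14_L, 10 in RL14_ML and 0 in the other 5. Without RL14_ML 1 and 6 edgeR called 3 members in RL14_L (Slc25a28, Slc25a44 and Slc25a51) and 3 in RL14_ML (Slc25a25, Slc25a29 and Slc25a44). In the main fit 0%, 0.00600%, 0.0480%, 0.0780%, 0.00600%, 0.294% and 0.714% of all genes were called, from HU_M to RL14_ML in the order above. Of all genes 0.0720% were higher in RL7_L and 0.204% in RL14_L. The shares under the other fits were not counted. The lowest p among them for Slc25a25 was in HU_ML, where all 4 libraries (61.8, 67.4, 52.02 and 33.5 CPM) lay below all 4 of HU_W, at 53.7 against 122 CPM (log2 fold change -1.19 ± 0.32 SE, unadjusted p = 0.000614, edgeR adjusted p = 0.222). The drop does not pass the threshold over all genes.

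The combination was set against each single drink in 6 comparisons, and 1 call was made. Slc25a37 was lower in HU_ML than in HU_M (23.5, 22.1, 20.1 and 23.3 against 27.2, 30.5, 76.4 and 28.95 CPM; log2 fold change -0.87 ± 0.19 SE, edgeR adjusted p = 0.0332; 0.150% of all genes). Without HU_M 3, the library with most red cell markers, the log2 fold change was -0.38 and the adjusted p 0.583, and the call was lost without HU_ML 1, 5 or 6 too. The other 5 comparisons had 0 calls by edgeR, with 3 (HU_ML against HU_L), 4 and 2 (RL7_ML against RL7_M and RL7_L) and 4 and 2 (RL14_ML against RL14_M and RL14_L) at an unadjusted p under 0.05. In these 0.0960%, 0%, 0%, 0.0240% and 0% of all genes were called. In HU_ML against HU_L DESeq2 called Slc25a30 and limma voom Slc25a25, and both tools called 0 in the other 4.

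Of the family members with other symbols, Ucp3, the uncoupling protein of skeletal muscle, was high in unloading. It rose in HU_W against AMB_W (318 against 142 CPM, log2 fold change 1.17 ± 0.31 SE, edgeR adjusted p = 0.0291), in HU_M (adjusted p = 0.0439) and in HU_L (adjusted p = 0.0135). In HU_ML it stood at 233 against 142 CPM (adjusted p = 0.261). With 7 d of reloading it fell under all 4 drinks, by 2.37-fold under water (log2 fold change -1.24 ± 0.32 SE, edgeR adjusted p = 0.0131), 3.82-fold under metformin, 2.75-fold under leucine and 2.12-fold with both. Ucp2, an uncoupling protein of immune and other cells, rose in HU_M (17.3 against 6.06 CPM, adjusted p = 0.0277). From HU to RL7 Mtch1 rose under metformin (adjusted p = 0.0259) and Mtch2, an outer membrane insertase, fell under leucine (adjusted p = 0.00193).

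Other genes of mitochondrial transport were counted from a list of 21 (the pyruvate carrier, VDAC porins, sideroflexins, the calcium uniporter and ABC exporters). In HU_W against AMB_W 0 of 21 were called by edgeR, with 0 at an unadjusted p under 0.05. From HU to RL7, 1 rose under water, 6 rose and 1 fell under metformin, and 4 rose under leucine, while under both 0 changed, with 2 at an unadjusted p under 0.05. Of all genes 4.88%, 29.6%, 28.6% and 5.91% were called in these comparisons, so the 7 of 21 under metformin and the 4 of 21 under leucine are near or below the background. The median log2 fold change of the list was 0.13, 0.09, 0.09 and 0.13, against 0.03, 0.05, 0.07 and 0.03 for all genes. Sfxn5 was the 1 under water (7.77 against 5.13 CPM, log2 fold change 0.60 ± 0.18 SE, edgeR adjusted p = 0.0379). Under metformin the serine transporter Sfxn1 rose (6.12 against 2.66 CPM, adjusted p = 0.0105), as did Mpc2, a subunit of the pyruvate carrier (47.9 against 33.6 CPM, adjusted p = 0.0186), and the calcium uptake regulator Micu3 fell (24.4 against 35.2 CPM, adjusted p = 0.0205). Over all libraries Sfxn1 averaged 3.21 CPM with a highest library of 15.3 CPM, and RL7_M holds RL7_M 4. For genes of the lists, Ucp3 and the enzymes below among them, calls were not recomputed with libraries left out.

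Enzymes that use the carried solutes were counted from a list of 17, of which 3 rose from HU to RL7 under water, 9 under metformin, 4 under leucine (where 1 fell) and 2 with both. Of all genes 1.97%, 15.4%, 14.7% and 2.69% rose, and the 5 of 17 called under leucine are at the background of 28.6% in either direction. The list's median log2 fold changes were 0.37, 0.53, 0.15 and 0.26, against 0.03, 0.05, 0.07 and 0.03 for all genes. Ckmt2, the mitochondrial creatine kinase that works beside the adenine nucleotide translocase, rose under water (539 against 225 CPM, log2 fold change 1.26 ± 0.32 SE, edgeR adjusted p = 0.0145). Bcat2, which transaminates branched-chain amino acids, rose under all 4 drinks (log2 fold changes 0.65, 0.89, 0.73 and 0.67). Mdh2, the matrix malate dehydrogenase of the shuttle, rose under metformin, leucine and both (0.82, 0.45 and 0.49), and its cytosolic partner Mdh1 rose under water (0.73). Acly, which splits exported citrate for fat synthesis, rose under metformin (36.3 against 11.02 CPM, adjusted p = 0.000464), in the group that holds RL7_M 4.

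Over the 30 pairwise comparisons 24 of the 39 tested members were called at least once, in 56 calls. The share of all genes called at least once was not counted, so the 24 cannot be set against a background. In RL7_M against HU_M and RL7_L against HU_L alone 29.6% and 28.6% of all genes were called. Slc25a25 had 9 of the 56 calls, all in comparisons that hold an unloaded group. The 15 never called were Slc25a4, Slc25a13, Slc25a14, Slc25a15, Slc25a17, Slc25a20, Slc25a22, Slc25a24, Slc25a26, Slc25a33, Slc25a34, Slc25a38, Slc25a40, Slc25a45 and Slc25a53. They include the carnitine/acylcarnitine carrier Slc25a20, which averaged 30.3 ± 4.23 CPM in HU_W and 41.3 ± 5.32 CPM in RL7_W (adjusted p = 0.121).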

How the data were processed

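Total RNA was sequenced after removal of ribosomal RNA with a kit that keeps the strand, per the labels' protocols. Per the submitters' processing notes, which list names without roles, STAR 2.7.3a, featureCounts 1.6.3, DESeq2 1.30.0 and GRCm38 were used. For the counting, the strand setting and the annotation release are not given in the sources used here. The authors deposited raw counts per Ensembl gene. The members, lists and markers were chosen with earlier results of these data known, so neither is independent evidence.

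From these counts, edgeR 4.0.16 (R 4.3.3) fitted a quasi-likelihood model (TMM scaling, robust dispersion, filterByExpr with a minimum count of 10) with 1 mean for each of 13 groups to all 52 libraries (39 residual degrees of freedom). The Benjamini-Hochberg adjustment ran over all 16668 genes in each of 30 pairwise comparisons and 3 interactions, and genes under 0.05 were called. Standard errors are the log2 fold change over the square root of F. Symbols, lengths and coordinates came from GENCODE vM21 (55141 of 55487 identifiers matched), and promoters from RefSeq (GRCm38.p6). The 78 pairs of replicates were compared and none looked like 1 library deposited again (lowest chi-square per degree of freedom 7.47). Alternatives were DESeq2 1.42.0, limma 3.58.1 (voom with quality weights), RLE size factors, no filter, the groups compared alone, a replicate block and libraries left out. Scripts were tested on simulated data. Every member may be named, and values in each library were given for those called in at least 2 pairwise comparisons, with the 6 largest called changes or among the 5 highest by RPKM. Outside this rule, library values are also given for the called members Slc25a32, Slc25a36, Slc25a44, Slc25a47 and Slc25a51. The search for libraries that lie apart did not cover these. A planned comparison of protein sequences was not run. The counts of members include 1 carrier whose values are not reported here.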

Additional observations from a re-analysis of the deposited data

Results flagged for a closer look

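In 15 of 221 groups of 4 values (17 carriers in 13 groups) the highest or lowest library lay apart by Dixon's criterion at the 95% level. Chance flags about 1 in 20 groups.

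RL7_M 4 lay apart in Slc25a1 (24.97 CPM against 2.17 to 2.73 CPM in the rest), Slc25a10 (17.6 CPM against 1.47 to 1.95 CPM) and Slc25a4 (538.6 CPM against 1006 to 1087 CPM). The same library had 937.2 CPM of adipocyte markers, and their part in these values was not tested. RL14_ML 1 lay apart in Slc25a10 (5.75 CPM against 0.771 to 1.41 CPM), Slc25a25 (26.7 CPM against 8.15 to 9.70 CPM), Slc25a29 (3.77 CPM against 0.518 to 0.964 CPM) and Slc25a35 (8.43 CPM against 3.70 to 4.05 CPM). HU_M 3 lay apart in Slc25a37 (76.4 CPM against 27.2 to 30.5 CPM), beside 179.9 CPM of red blood cell markers, and in Slc25a23 (6.20 CPM against 10.4 to 10.5 CPM).

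Slc25a25 was high in RL7_M 3 (31.8 CPM against 12.3 to 13.2 CPM) and low in RL14_L 1 (10.5 CPM against 13.3 to 13.6 CPM). Slc25a30 was low in HU_L 1 (8.22 CPM against 23.02 to 23.9 CPM) and in RL7_ML 6 (5.41 CPM against 7.39 to 7.70 CPM). Slc25a3 was high in RL14_W 1 (342.5 CPM against 259.0 to 267.5 CPM), and Slc25a28 in HU_M 4 (19.5 CPM against 14.5 to 15.3 CPM).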

How the results depend on the processing

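No member that was called turned its sign under any alternative run. Of the recomputed counts of called members, 353 stayed within 1.5 times the main count and 71 did not, and of the recomputed calls of single members 2270 were kept and 366 were lost. The main counts were 2 (HU_W against AMB_W), 0 (RL7_W against AMB_W), 1 (RL14_W against AMB_W), 1 (RL7_W against HU_W), 3 (RL14_W against HU_W), 0 (RL14_W against RL7_W), 5 (drinks against water), 11 (unloading under drinks), 32 (reloading for 7 d under drinks), 0 (14 d under drinks against AMB_W), 1 (combination against a single drink), 0 (interactions), and 5, 23 and 17 for the means over drinks at unloading, 7 d and 14 d, which were added after seeing the data. The cause of the moves below was not tested, and the share of all genes called under each alternative was not counted.

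With limma voom the count was 5 in HU_W against AMB_W, 6 in RL14_W against AMB_W, 9 and 13 in RL7_W and RL14_W against HU_W, 4 in RL14_W against RL7_W and 26 for drinks against water. With only the libraries compared it was 5, 1 and 5 in HU_W, RL7_W and RL14_W against AMB_W, 9 and 9 in RL7_W and RL14_W against HU_W, 2 in RL14_W against RL7_W, 0 for the combination and 2 for the interactions. DESeq2 gave 5 in RL14_W against HU_W and 2 for the combination. With no filter on low counts it was 0 in RL14_W against AMB_W, 1 in RL14_W against HU_W, 1 for drinks against water, 21 for 7 d under drinks, 0 for the combination and 3 for the mean of unloading. Without RL14_ML 1 and 6 it was 3 in RL14_W against AMB_W, 5 and 9 in RL7_W and RL14_W against HU_W, 3 in RL14_W against RL7_W and 14 for drinks against water. Without the 12 libraries over 16 CPM of Alb it was 1 in HU_W against AMB_W, 1 in RL14_W against HU_W, 17 for 7 d under drinks, 0 for the combination, 3 for the mean of unloading and 11 for the mean at 14 d.

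Leaving out each library in turn gave from 1 to 2 calls in HU_W against AMB_W (1 without AMB_W 5 or HU_W 1), 0 to 1 in RL14_W against AMB_W, 1 to 5 in RL14_W against HU_W (5 without RL14_W 5), 1 to 18 for drinks against water (18 without RL14_ML 1, and 1 without RL14_W 3, RL14_W 4 or RL14_M 6), 5 to 11 for unloading under drinks (5 without AMB_W 5), 25 to 31 for 7 d under drinks, 0 to 2 for 14 d under drinks against AMB_W (2 without RL14_ML 6), 0 to 1 for the combination (0 without HU_M 3, HU_ML 1, HU_ML 5 or HU_ML 6), and 3 to 5, 20 to 25 and 14 to 19 for the means. It left 0 in RL7_W against AMB_W, RL14_W against RL7_W and the interactions, and 1 in RL7_W against HU_W.

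The labels reuse replicate numbers across groups, but same-numbered libraries did not deviate together in 29 of the 30 comparisons (lowest correlation in each from -0.289 to 0.0334). RL14_ML against RL14_L, with 2 shared numbers, was the exception (0.117 and 0.204), and 3 pairs are needed to treat numbers as pairs. A fit with the replicate block gave 0 in RL14_W against AMB_W, 6 in RL14_W against HU_W, 3 for drinks against water and 0 for the combination. With 4 libraries a group and a common dispersion of 0.045, changes as small as those of Slc25a3 or Slc25a12 sat near the threshold, and the 8 members of up to 13 counts could not be judged.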
